A study of Mus musculus with 2 samples.

Results

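The 42 genes described here encode proteins of the synapse and were picked by gene name, with no rule on their levels, from the 55536 genes of the newer of the deposited quantifications. They fall into 17 genes of the synaptic vesicle, 14 genes of the active zone and of transmitter release, 5 genes of vesicle endocytosis and 6 genes of the postsynaptic scaffold. The samples were 2 polyadenylated RNA libraries from the midbrain of B6NCrl mouse embryos at 12.5 days of gestation, each from pooled male and female animals. Replicate 1 came from 120 embryos and replicate 2 from 88. Both formed 1 group with no mutation and no treatment named in the labels, so the comparisons lie between gene classes, between the 2 pools and between the 2 annotations against which the reads were counted.

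At a chemical synapse, transmitter is packed into vesicles that dock at the active zone, a protein meshwork under the presynaptic membrane. There the vesicle protein synaptobrevin pairs with syntaxin and Snap25 to fuse the membranes when synaptotagmin senses calcium, and the vesicle membrane is then taken back by endocytosis. Across the cleft, scaffold proteins of the Dlg, Shank and Homer families hold receptors at excitatory synapses, and gephyrin holds them at inhibitory ones. Many of these genes are also transcribed in young neurons before synapses form, and several have close relatives that serve membrane traffic in all cells.

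Expected counts, which are estimated reads per gene, summed to 29056772 over annotated genes in replicate 1 and 37122519 in replicate 2. The tissue label was checked against genes of the midbrain and of the hindbrain. Otx2, a factor of forebrain and midbrain, stood at 144.56 and 140.91 TPM (transcript abundance, reads divided by transcript length and brought to 1 common sum per library). The midbrain factor En1 stood at 5.6 and 8.06 TPM and Th, the first enzyme of dopamine synthesis, at 12.41 and 22.34. The hindbrain genes Hoxa2, Hoxb2 and Hoxb4 were all at or below 0.29 TPM. Of the 4 genes of other brain regions examined, however, 1 reached 1 TPM in both libraries, with a mean of 2.96 TPM. Genes of postmitotic neurons were all above 10 TPM in both libraries, with a summed level of 3322 and 3256 TPM over 14 genes, and so were all but 1 of the 12 progenitor genes. In tissue RNA of this kind, fewer cells of a type and less RNA per cell cannot be told apart.

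Of the 42 synaptic genes, 41 reached 1 TPM in both libraries and 27 reached 10 TPM. The exception was Sv2c, at 0.87 and 1.58 TPM. The median member stood at 17.6 TPM ± 0.0247 (SD, n = 2), beside 22.3 ± 0.311 over the 13083 protein-coding genes that reached 1 TPM in both libraries. Among all 22028 protein-coding genes, 59.4% reached 1 TPM and 40.9% reached 10 TPM in both. The 42 synaptic genes were thus nearly all transcribed at this stage, at levels close to those of other transcribed genes and not among the most abundant. They were chosen with earlier results of these data known, so the share detected is a description and not a test.

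Vesicle and endocytosis genes had the higher class medians, release genes came next and scaffold genes were lowest. The vesicle median was above the endocytosis median in replicate 1 and below it in replicate 2, so those classes had no order. The class median was 24.5 TPM in replicate 1 and 23.1 in replicate 2 for vesicle genes, 20.1 and 23.9 for endocytosis genes, 15.1 and 14.5 for release genes, and 10.8 and 9.18 for scaffold genes. On the scale log2(TPM + 0.1), the vesicle median lay 1.20 and 1.38 above the scaffold median in the 2 libraries, a difference of 1.29 ± 0.126 (SD, n = 2), which corresponds to 2.44-fold. The release median lay 0.49 and 0.68 above the scaffold median, or 0.59 ± 0.135. The vesicle median lay 0.71 and 0.69 above the release median, or 0.70 ± 0.00927. The endocytosis median, over 5 genes, lay 0.92 and 1.42 above the scaffold median, or 1.17 ± 0.358. Each difference exceeded its spread between the libraries, but the classes overlapped widely, with vesicle genes from 1.23 to 157 TPM and scaffold genes from 2.39 to 20.9 TPM in the mean of both libraries. The release to scaffold difference was 0.24 with the older annotation, so its size depended on the annotation. It was 0.28 when each gene's reads were divided by the length of its longest coding transcript, so its size also depended on the length used. By that same division the vesicle to release difference was 1.11 and the endocytosis to scaffold difference 0.75. Genes are not replicates of a class, and no test was made across them.

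**Figure D1:**
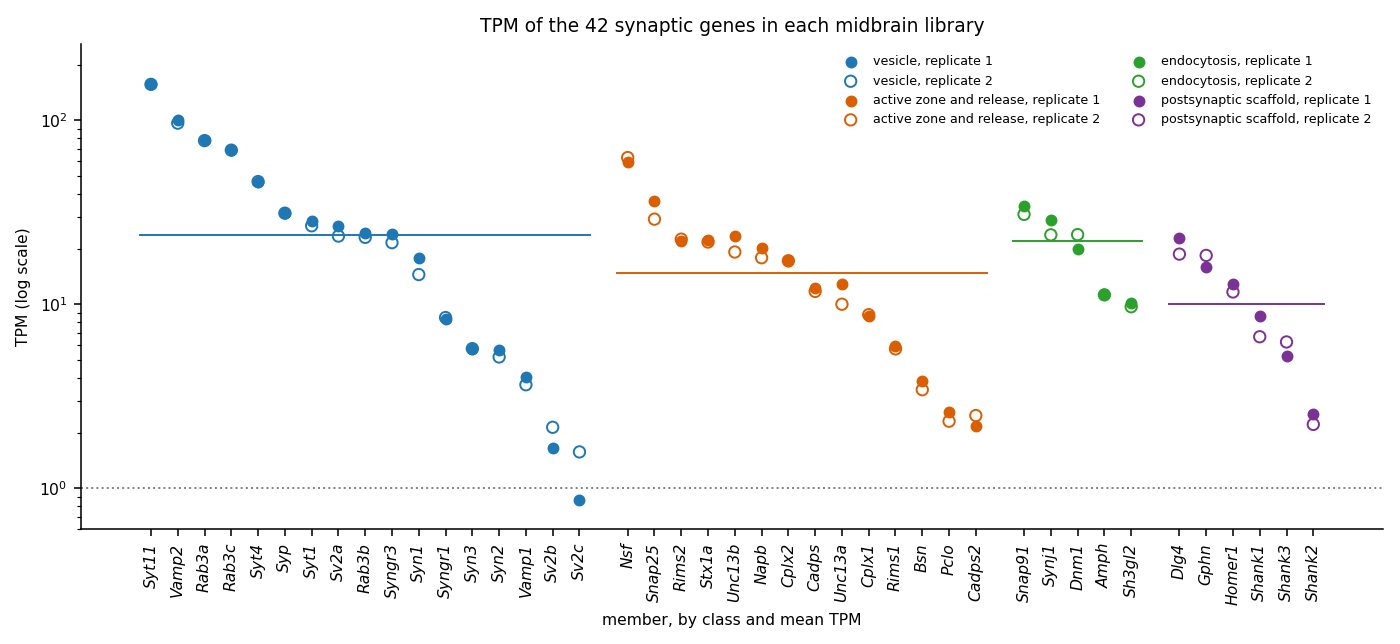
TPM of each of the 42 genes on a log axis, with filled circles for replicate 1, open circles for replicate 2, a horizontal bar at each class median (mean of both libraries) and a dotted line at 1 TPM. The vesicle bar lies at 23.8 TPM and the scaffold bar at 9.99, the filled and open circles of most genes nearly coincide, and Sv2c alone falls below 1 TPM in a library.

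A synaptotagmin led the vesicle class, but Vamp2, Rab3a and Rab3c stood above the other synaptotagmins. Syt11, a synaptotagmin that does not bind calcium and acts in membrane traffic, was the highest of all 42 genes. It lies at chr3:88744700-88775164 on the minus strand of assembly mm10 and stood at 156.52 TPM in replicate 1 and 156.70 in replicate 2, above 92.7% of the detected protein-coding genes. Syt4, found on dense-core and other non-synaptic vesicles, stood at 45.97 and 46.46 TPM. Syt1, the calcium sensor of fast release, stood at 28.48 and 26.72 TPM. The order of these 3 genes was therefore the same in both pools, and the gaps between them were many times the differences between the pools. Among the 14 synaptotagmin genes examined, Syt11 took 49.1% ± 0.102 of the summed TPM (SD, n = 2), Syt4 14.5% ± 0.0669 and Syt1 8.66% ± 0.415. Syt2, the fast sensor of many hindbrain and spinal synapses, was at 2.66 and 2.09 TPM.

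The fusion protein of the vesicle, synaptobrevin, was represented almost wholly by Vamp2, at 99.91 and 96.48 TPM, with Vamp1 at 4.04 and 3.66. Rab3 GTPases, which tether vesicles to the active zone, were divided among 3 members. Rab3a was at 77.84 and 77.53 TPM, and Rab3c, at 69.37 and 68.82, lay close below it. Rab3b was at 24.47 and 23.12. The relative Rab3d, better known from secretory cells outside the brain, was at 10.08 and 10.47 TPM, so Rab3a and Rab3c together were the main forms. The level of Rab3c rested on the annotation, as described below.

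Synaptophysin (Syp), the classic membrane protein of the vesicle, stood at 31.17 and 31.29 TPM. The synapsins, which coat vesicles and hold them in reserve, were lower. Syn1 was at 17.85 and 14.52 TPM, Syn2 at 5.66 and 5.18, and Syn3 at 5.69 and 5.75. Syn1 took 59.1% ± 2.88 of the summed synapsin TPM, and Syn2 and Syn3 did not differ beyond their spread in their mean levels of 5.42 ± 0.339 and 5.72 ± 0.0424. For Syn3, 14.1% of the annotated exon bases are shared with Timp3 on the opposite strand, a gene at 17.6 and 19.2 TPM. Since no source states the strand setting of the counts, reads of the pair cannot be told apart. Syp and Syt4 likewise share 16.8% and 14.5% of their exon bases with opposite-strand transcripts (Gm14703 and Gm26658), each at 1.5 TPM or less. Of all 42 members, 15 share some exon bases with another annotated gene.

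The SV2 transporter-like proteins also differed widely within their family. Sv2a was at 26.56 and 23.50 TPM, Sv2b at 1.65 and 2.15, and Sv2c at 0.87 and 1.58. Sv2b and Sv2c were the 2 lowest members of the whole set, resting on 158 and 261 counts for Sv2b and on 107 and 158 for Sv2c. Of the synaptogyrins, tetraspan proteins of the vesicle, Syngr3 stood at 24.20 and 21.64 TPM and Syngr1 at 8.33 and 8.48.

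Among the release genes, the highest was Nsf, the ATPase that takes apart used SNARE complexes in all membrane traffic, at 59.01 and 62.73 TPM. The neuronal target SNARE Snap25 followed at 36.35 and 29.03 TPM, so its TPM was higher in replicate 1. Stx1a, its syntaxin partner, was at 22.41 and 21.81 TPM. Napb, the neuronal adaptor through which Nsf acts on SNAREs, was at 20.30 and 17.92 TPM.

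The large proteins of the active zone and Cadps2 stood lowest in the release class. Bassoon (Bsn) was at 3.82 and 3.44 TPM and piccolo (Pclo) at 2.61 and 2.32, though their length gave them 791 and 895 counts and 776 and 785 counts. Cadps2, a priming factor for dense-core vesicles, was at 2.19 and 2.49 TPM, well below its paralog Cadps at 12.30 and 11.76. RIM genes, whose products link Rab3 to calcium channels, were led by Rims2 at 21.96 and 22.61 TPM, with Rims1 at 5.91 and 5.73. Of the Munc13 genes, whose products open syntaxin for assembly, Unc13b (23.47 and 19.25 TPM) was above Unc13a (12.94 and 10.02 TPM), the main form of adult forebrain synapses. Unc13b took 62.6% ± 0.564 of the summed TPM of 4 Munc13 genes. Complexins clamp and assist fusion, and of them Cplx2 (17.26 in both libraries) was above Cplx1 (8.69 and 8.79).

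Across the members, effective length (the number of positions at which a read can start) ran from 1136 to 15113 bases, and its Spearman correlation with TPM was -0.386 (n = 42). This is a description across genes that share both libraries and the same length correction.

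The endocytosis genes were closer to each other. Snap91, the clathrin adaptor AP180, was at 34.36 and 30.82 TPM, and the lipid phosphatase synaptojanin (Synj1) was at 28.85 and 23.86. Dnm1, the dynamin that cuts vesicles from the membrane in neurons, was at 20.10 and 23.93. Amphiphysin (Amph) was at 11.45 and 11.26 TPM and endophilin A1 (Sh3gl2) at 10.19 and 9.71. The 5 genes kept this order in both pools except that Dnm1 came level with Synj1 in replicate 2.

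Of the scaffold genes, Dlg4, which encodes PSD-95 and spans chr11:70016942-70047522 on the plus strand, was the highest, at 23.08 and 18.75 TPM. Gphn, gephyrin of inhibitory synapses and also an enzyme of molybdenum cofactor synthesis in many tissues, was at 15.98 and 18.45. Their order was the same in both pools, but in replicate 2 they stood almost level. Homer1, which links Shank proteins to metabotropic glutamate receptors, was at 12.91 and 11.68 TPM. The Shank genes were the lowest of the class: Shank1 at 8.69 and 6.67 TPM, Shank3 at 5.24 and 6.25, and Shank2 at 2.54 and 2.23. Shank1 and Shank3 stood almost level in replicate 2.

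Members were next set beside the relatives that serve membrane traffic or adhesion in many cell types (14 pairs, listed after the member values had been seen). The member was higher in both libraries in 4 pairs, the relative in 7, and in 3 the order differed between the libraries. Synj1 lay 32.2-fold above Synj2, although Synj2 rested on only 39 and 123 counts. Rab3a lay 7.50-fold above Rab3d, Vamp2 1.51-fold above Vamp3 and Stx1a 1.37-fold above Stx4a (folds of TPM + 0.1, mean of the log2 values). In the other direction, endophilin Sh3gl1 lay 10.3-fold above Sh3gl2, the SNARE adaptor Napa 7.29-fold above Napb, Homer3 6.25-fold above Homer1, and Bin1 5.27-fold above Amph. Dnm2 lay 2.70-fold above Dnm1, Syngr2 2.43-fold above Syngr1 and Picalm 1.16-fold above Snap91. All endocytosis genes except Synj1 were thus below their broadly expressed relative with the newer annotation. With the older one Snap91 stood above Picalm, at 35.07 and 31.36 TPM against 20.26 and 18.7. Snap25 with Snap23, Syp with Sypl and Dlg4 with Dlg1 differed by less than the difference between the libraries.

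**Figure D2:**
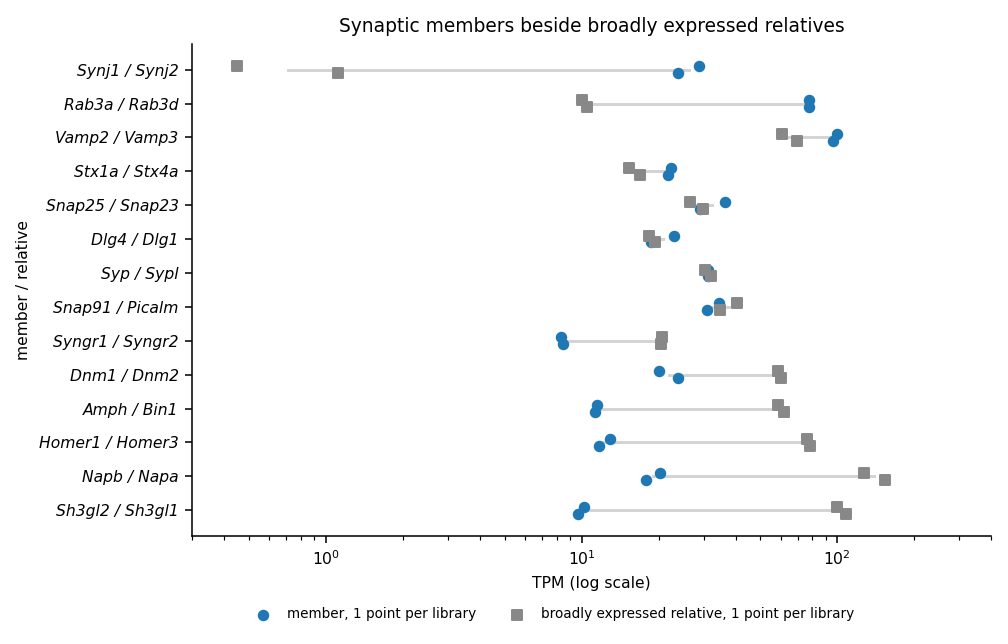
TPM on a log axis for 14 synaptic genes (blue circles) and a broadly expressed relative of each (grey squares), with 1 point per library and a grey line joining the geometric means. The top 4 pairs have the member higher in both libraries, from Synj1 down to Stx1a, and in the lowest 7 pairs the relative is higher, with Sh3gl1 10.3-fold above Sh3gl2 at the bottom.

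A wider list of 89 other genes of the same pathways was likewise mostly detected, with 83 at 1 TPM or more in both libraries and a median of 15.6 TPM ± 0.495. Of 24 further vesicle genes, 23 were detected. Vamp3 (60.56 and 69.61 TPM), Vamp4 (50.45 and 53.93), both of endosomal traffic, and Scamp1 (52.6 and 50.22) were highest and Syt10 lowest, with 10 counts in replicate 1 and 0 in replicate 2. Of 29 further release genes, 25 were detected, from Snap47 (137.53 and 147.85 TPM) and Napa (127.35 and 153.33) down to Cplx4 (0.12 and 0.02), a complexin of the retina. Of 18 further endocytosis genes, 17 were detected, and their median of 59.8 TPM ± 1.75 was above those of the other lists. The clathrin adaptor subunit Ap2m1 led them at 692.4 and 716.27 TPM, with Ap2s1 at 212.32 and 223.23 and clathrin light chain Clta at 172.73 and 182.85. All 18 further scaffold genes were detected. The highest were Dlgap4 (149.31 and 148.81 TPM), Lin7c (131.21 and 124.73) and Homer3 (76.43 and 78.06), and the lowest was Lin7b (1.98 and 2.31).

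The 2 pools were compared by the ratio of expected counts, replicate 1 over replicate 2, scaled by TMM (a scaling to the bulk of genes) and given with an exact conditional binomial 95% interval that covers counting error only. None of the 42 members differed 2-fold with an interval that left out equality, where 4.23% of the 19885 genes with at least 10 counts did. Calls were rarer among better counted genes, with 56 of the 12249 genes whose mean counts lay within the members' own range and 83 of 13080 detected protein-coding genes, so 0 of 42 does not set the members apart. The members' log2 ratios lay between -0.36 and 0.35. The interval alone excluded equality for 21 members higher in replicate 1, beside 15.5% of all genes, and for 2 higher in replicate 2, beside 16.7%. Among the genes in the members' count range, 19.3% were higher in replicate 1. The members' median log2 ratio was 0.14 and that of all genes -0.013. Scaled to the ERCC spike-in counts, the same median was -0.13 and that of all genes -0.28. Then 0 members were higher in replicate 1 and 21 higher in replicate 2, so the direction was relative to the bulk of genes. The share of all genes beyond counting error was not counted under spike-in scaling, so the 21 do not set the members apart.

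Under TMM scaling the median ratio of each class of members was above that of all genes. The wider lists of the same pathways shared this only in part. Over 88 of the 89 other synaptic genes the median log2 ratio was 0.014. There 22 genes lay above equality beyond counting error and 10 below. Over the 18 further scaffold genes the median was 0.11, with 7 above and 0 below, and over the further release genes 0.036, with 8 and 3. The further vesicle genes had -0.0085, with 6 and 2, and the 18 further endocytosis genes -0.025, with 1 and 5. Among the members, the interval lay above equality for 7 of 17 vesicle genes, 8 of 14 release genes, 2 of 5 endocytosis genes and 4 of 6 scaffold genes. The class medians of the log2 ratio were 0.11, 0.17, 0.13 and 0.22 in that order, and spike-in scaling lowered each by 0.27. Snap25, with 1319 and 1338 counts, had a log2 ratio of 0.34 (interval 0.23 to 0.45). Pclo had 0.35 (0.20 to 0.49), Syn1 0.33 (0.20 to 0.45) and Homer1 0.26 (0.13 to 0.40). The 2 members higher in replicate 2 were Sv2b at -0.36 (-0.66 to -0.07) and Gphn at -0.12 (-0.24 to -0.001).

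**Figure D3:**
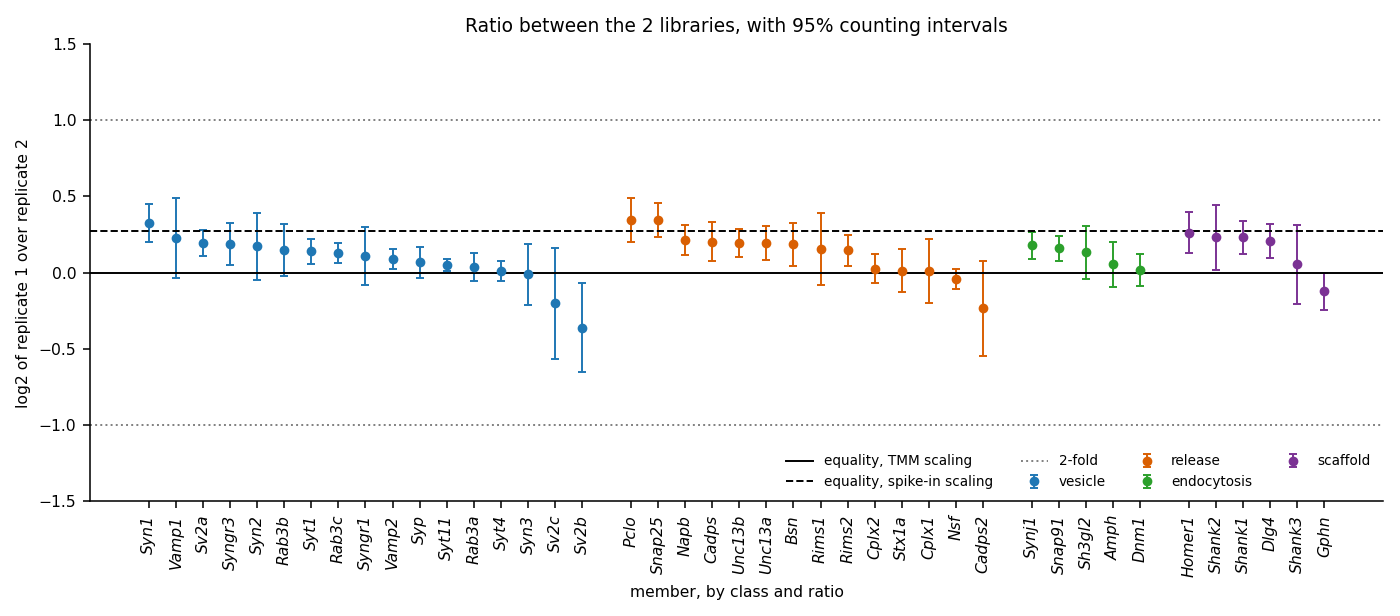
log2 of replicate 1 over replicate 2 for each member (points) with exact 95% counting intervals (bars), a solid line at equality under TMM scaling, a dashed line where spike-in scaling puts equality, 0.27 higher, and dotted lines at 2-fold. Under TMM scaling 36 of 42 points lie above equality and all lie within 2-fold, while most points lie below the dashed line.

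Genes of other cell types and of the midbrain itself differed between the pools as well. Of 6 midbrain genes, 5 were higher in replicate 2, with a median log2 ratio of -0.50, and the floor plate factor Foxa2, at 5.09 and 10.98 TPM, differed more than 2-fold. Of 8 mesenchyme genes, 7 were higher in replicate 2 beyond counting error, with a median log2 ratio of -0.45 and summed levels of 1017 and 1443 TPM. Of 7 erythroid genes, 5 were higher in replicate 2, with a median of -0.19 and sums of 13274 and 15630 TPM. Of 14 postmitotic neuron genes, 9 were higher in replicate 1 and 3 in replicate 2, with a median of 0.083, and of 12 progenitor genes 6 and 2, with a median of 0.060. Among the progenitor genes Pax6, at 57.16 and 16.88 TPM, differed more than 2-fold between the pools. The ratio of the sensory ganglion genes had a median of -0.37, with sums of 97.7 and 92.9 TPM. Only 1 of these 7 genes reached 10 TPM in both libraries. The highest had a mean of 82.1 TPM, so 1 gene made up most of the sum. The ratio of the endothelial genes had a median of -0.22, with sums of 80.5 and 89.7 TPM. The microglia genes had a median of -0.17 with sums of 49.1 and 56.0 TPM, and the mature glial genes -0.84 with sums of 23.2 and 25.2. Of the 6 glial genes only 2 reached 1 TPM in both libraries, and the highest had a mean of 15.8 TPM. Gfap was at 0.04 and 0.02 TPM. The sensory ganglion genes Scn10a and Tlx2 were at 0 to 0.06 TPM. The part of these cell types, and of the regions dissected, in the members' ratios was not tested.

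Among alternative transcripts, those of Snap25 were looked at first, because its paired coding exons are mutually exclusive. The gene spans chr2:136713453-136782428 on the plus strand of assembly mm10. The leading transcript, Snap25-201, carries the downstream exon at chr2:136770057-136770174, and Snap25-202 the upstream exon at chr2:136769743-136769860. Each is exon 5 of its transcript and 118 bases long, and 31 of these bases differ (capitals), an identity of 73.7%. Both sequences, from the GENCODE M21 transcripts, are shown because the balance of these exons changes as neurons mature.
Snap25-201 exon 5: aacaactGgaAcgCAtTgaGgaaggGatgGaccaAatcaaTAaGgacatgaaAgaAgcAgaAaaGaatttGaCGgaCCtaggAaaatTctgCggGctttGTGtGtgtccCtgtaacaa
Snap25-202 exon 5: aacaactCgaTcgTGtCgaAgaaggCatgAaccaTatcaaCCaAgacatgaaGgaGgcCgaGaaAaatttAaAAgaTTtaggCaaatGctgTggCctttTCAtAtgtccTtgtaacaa

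Snap25-201, the form that becomes prevalent in mature brain, took 81.5% of the TPM of Snap25 in replicate 1 and 80.2% in replicate 2. Snap25-202 took 15.1% and 15.8%. The shares were alike in both pools although the TPM of the gene was not. With spike-in scaling 0 members, and so not Snap25 either, were higher in replicate 1 beyond counting error. In counts, they rested on 1116 and 1106 reads for Snap25-201 and on 93.9 and 98.9 for Snap25-202. The transcripts also end differently, with a last exon of 1354 bases in Snap25-201 and 277 in Snap25-202, and how far the alternative exon itself contributed to the estimates was not tested.

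Over the 41 detected members, the transcript with the largest share was the same in both libraries for 38, or 92.7%, beside 91.9% of the detected protein-coding genes. It differed for Rims2, Dnm1 and Synj1. In Dnm1 the share of Dnm1-202 was 39.1% and 24.6%, and that of Dnm1-205 was 4.93% and 25.9%, both with a coding sequence of 2592 bases. The authors' credibility bounds on the TPM of Dnm1-205 were 0.151 to 3.00 in replicate 1 and 2.66 to 7.35 in replicate 2, so they overlapped slightly. In Rims2 the share of Rims2-205 was 28.5% and 16.6% and that of the much shorter-coding Rims2-204 was 19.6% and 17.8%. In Synj1 the leading form was the coding Synj1-202 in replicate 1 (23.2%, against 21.96% in replicate 2) and the retained intron Synj1-201 in replicate 2 (24.3%, against 14.1% in replicate 1). In all 3 genes the bounds of the leading transcripts overlapped between the libraries.

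The share of a gene's TPM in transcripts annotated as protein coding had a median of 94.7% and 92.5% over the 41 detected members. Over all detected protein-coding genes the median was close to this, at 91.3% and 91.1%. The mean share was under 80% in 9 of the 41 members, a smaller part than the 33.3% of the detected protein-coding genes. Of the 14 release genes, 7 were among these 9, a larger part than the 33.3%. The place of Cadps among them depended on the annotation. Its coding share was 59.65% and 58.71% with the newer annotation and 100% in both libraries with the older one. Stx1a was lowest, at 48.3% and 46.7%. Its Stx1a-204, annotated as subject to nonsense-mediated decay, took 27.6% and 34.2%. Retained introns took 36.5% and 40.4% of Unc13a, 34.2% and 40.5% of Syn3, 29.7% and 23.4% of Unc13b and 23.2% and 24.1% of Nsf. Unspliced RNA was not measured separately.

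**Figure D4:**
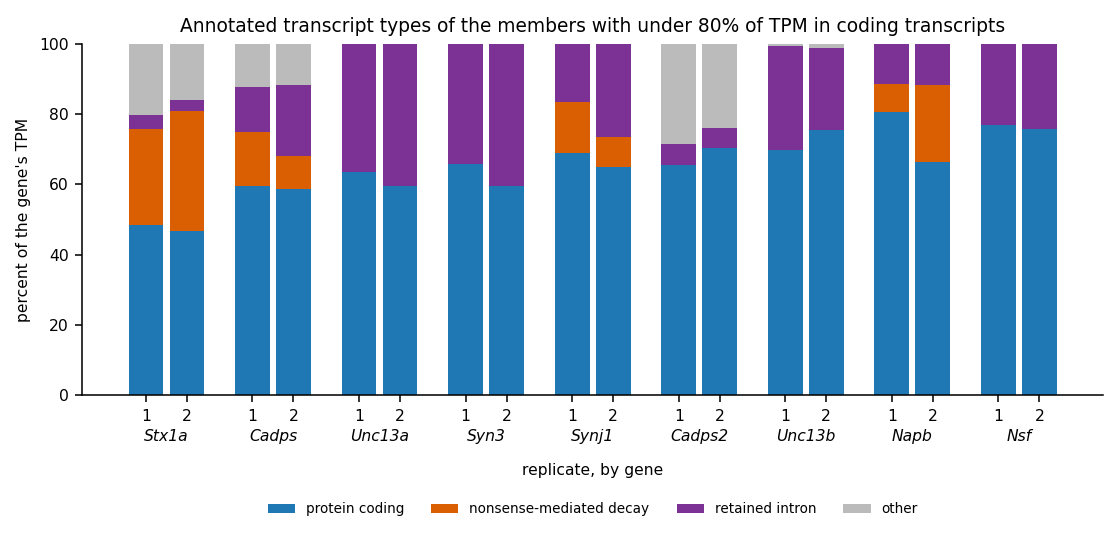
Percent of each gene's TPM in transcripts annotated as protein coding, nonsense-mediated decay, retained intron or other, in replicate 1 and replicate 2, for the 9 members whose mean coding share was under 80%. Stx1a is the only gene below 50% coding, and the purple retained-intron blocks of Unc13a and Syn3 are the largest, each above 34% in both libraries.

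The scaffold genes differed in how much of their TPM lay in transcripts that could encode the full protein, taken as a complete coding sequence of at least 80% of the longest annotated for the gene (a measure added after the values were seen). The share was 93.6% ± 2.89 for Gphn (SD, n = 2), 90.2% ± 8.44 for Shank1 and 65.0% ± 3.19 for Homer1. It was 21.3% ± 3.68 for Dlg4, 19.1% ± 2.29 for Shank3 and 10.8% ± 8.26 for Shank2. The value of Shank2 turned on the limit, since Shank2-202, with 4416 coding bases of the longest 5523, fell just short of it and took a further 13.45% and 16.74%. By this measure Dlg4 stood at 4.31 and 4.48 TPM, against 15.29 and 16.89 for Gphn, so gephyrin and not PSD-95 was then the highest scaffold gene. Shank3 stood at 1.08 and 1.09 TPM and Shank2 at 0.42 and 0.11.

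The single forms behind these shares were as follows. Dlg4-214, a transcript of 6326 bases with 819 coding bases, took 31.8% and 33.4% of the TPM of Dlg4 and 68.8% and 66.5% of its reads, while Dlg4-201, with 1992 coding bases, took 12.6% and 13.7% of the TPM. Shank3-207, of 719 bases and with an incomplete coding end, took 59.9% and 68.8% of the TPM of Shank3 on 36.3 and 62.8 reads, and Shank3-201, with 5190 coding bases, 20.7% and 17.5% on 142 and 181 reads. The TPM of Shank3 as a gene thus rested mostly on few reads assigned to a short transcript. In Gphn the 2 coding forms Gphn-202 and Gphn-201 took 57.1% and 56.3% and 38.6% and 35.3%. In Homer1 the long forms, which carry the coiled coil that joins Homer proteins, took 67.3% and 62.8%, led by Homer1-202 at 43.5% and 34.8%, and the 8 forms under 1000 coding bases took 32.7% and 37.3%, led by Homer1-206 at 13.7% and 17.4%. Of the Dnm1 forms not yet given, Dnm1-204 took 15.2% and 11.4%. The full-protein share is given for the scaffold genes only, but short or incomplete forms also led outside that class. Rims1-209, with 1164 coding bases and 74.6 and 89.6 reads, took 50.6% and 49.7% of the TPM of Rims1. Bsn-202, with an incomplete coding end, took 56.3% and 56.9% of the TPM of Bsn.

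The level of a few members depended on the annotation. With the newer annotation (M21) 36 of the 42 genes had a TPM between 0.9 and 1.1 times that of the older one (M4), and 4 had 1.5 times or more. Rab3c went from 20.94 and 19.33 TPM to 69.37 and 68.82, or 3.44-fold ± 0.175, with only 1.11 and 1.12 times the counts. The gene spans chr13:110054187-110280996 on the minus strand. The older annotation held a single Rab3c transcript of 8500 bases, and in the newer one Rab3c-202, of 2398 bases, took 48.7% and 52.1% of the TPM. In the older tables Rab3c stood below Rab3b, which was at 25.72 and 24.28 TPM there. Rims1 stood 1.71-fold higher in the newer annotation, Rims2 1.67-fold and Cadps 1.65-fold. Dlg4 went the other way in its parts, with 2.87 and 2.76 times the counts in the newer annotation. Its effective length in the older annotation was 0.407 and 0.396 times that in the newer one. The TPM of Dlg4 stayed within 1.04 to 1.11 times the older value.

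The promoters of the members were read in the RefSeq table of build GRCm38.p6, which holds 250 bases before and 50 after each start and matched 34 of the 42 genes. Their median GC content was 62.3% and their median number of CG pairs 20, beside 61.3% and 21 for 10208 detected protein-coding genes and 52.7% and 7 for all 27025 symbols in the table. The base composition of the windows was thus that of transcribed genes in general. Both strands were searched for the RE1 element bound by Rest, the repressor that silences neuronal genes outside neurons, as TTCAGCACC, 2 free bases and GGACAGC. With at most 2 mismatches over its 16 fixed bases, the element was found in Syn1 alone among the 34 members, in 0.147% of the detected protein-coding genes and in 0.0814% of all symbols. With at most 4 mismatches it was found in Syn1, Syn2 and Unc13a, in 5.01% of the detected protein-coding genes and in 4.35% of all symbols. The cyclic AMP response element TGACGTCA, which does not overlap the RE1 match, was found in Syn1 and Sh3gl2, in 3.68% of the detected protein-coding genes and in 2.03% of all symbols.

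The stretch of the Syn1 promoter that holds both elements is printed because Syn1 carried the closest RE1 match among the members while at 17.85 and 14.52 TPM. It lies upstream of the annotated exons, at chrX:20921005-20921168 on the minus strand. The capitals mark first the RE1 match, 232 bases before the start and with 2 mismatches, and then the cyclic AMP response element, 159 bases before the start.
Syn1 promoter: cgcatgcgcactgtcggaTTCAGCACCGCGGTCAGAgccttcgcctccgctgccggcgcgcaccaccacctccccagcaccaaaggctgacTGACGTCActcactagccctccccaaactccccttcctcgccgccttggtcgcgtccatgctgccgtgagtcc

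Rest itself stood at 14.8 and 16.04 TPM. Its corepressor Rcor2 was at 73.59 and 73.48 TPM and Rcor1, the lowest of 6 genes of RE1 silencing, at 6.42 and 6.68. The highest of them was the histone methyltransferase Ehmt2, at 86.03 and 94.02. None of the 6 differed 2-fold between the pools. Members and repressor were both present in RNA of the whole tissue, and which cells held which was not measured.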

How the data were processed

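Polyadenylated RNA was measured in 2 libraries, each a separate pool of embryos per the labels. Per the labels' protocols, 10 ng of RNA went into each, with oligo-dT priming and tagmentation, with ERCC spike-ins and no molecular identifiers named. For each library the authors deposited a gene and a transcript table on assembly mm10, counted once with GENCODE M21 and once with M4. Per the file headers they hold expected counts, which are estimated reads, and TPM, which is scaled to a fixed total per library. The deposited transcript tables also hold the percent of a gene's TPM in each transcript, and the authors' other columns give credibility bounds on TPM. The columns are those of RSEM. No source used here gives the aligner, the version or the strand setting.

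M21 was the main quantification. Members were matched by gene name through the GENCODE M21 annotation, and all 42 were found. The total of all rows was 30274342 and 38421860 expected counts, and rows that name no gene (4.02% and 3.38%, nearly all spike-ins) were left out. TPM was used as deposited, with a limit of 1 TPM and log2(TPM + 0.1), which understates differences at low levels. Ratios used expected counts rounded to whole numbers, at least 10 in a library and TMM scaling (edgeR 4.0.16, R 4.3.3), with exact conditional binomial (Clopper-Pearson) 95% intervals (scipy 1.17.1). Intervals cover counting error only. With 2 pools and 1 group there was no test. The ratio script was tested on simulated data. Alternatives included DESeq2 1.42.0 size factors.

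The members and the gene lists were chosen with earlier results of these data known. The rule names, in each class, the 3 highest and 2 lowest members, members under 1 TPM or 2-fold different, and family paralogs. In each wider list it names the 3 highest, the lowest, 2-fold different genes and paralogs of members, and for transcripts leading forms that differ, are not coding or take under 50 percent, and forms of 6 genes with 10 percent or more. Other members were named freely, and some genes of the lists are not reported here. The pairs of relatives, the genes of brain regions, the share of full-length coding transcripts, the promoter motifs and the division by the longest coding transcript were chosen after values were seen.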

Additional observations from a re-analysis of the deposited data

How the results depend on the processing

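Of 80 alternative values, 67 counted as unchanged, 12 moved and 1 reversed. Unchanged meant within 1.5-fold for a count and within the spread of the reported value for a difference, ratio or share. For class differences and coding shares, a value from 1 library always lies within the SD of the 2 libraries. Those values were thus bound to count as unchanged and say nothing about robustness. The 4 differences between classes that were examined kept their sign under all alternatives tried. Vesicle minus endocytosis was not among them. The vesicle minus scaffold difference was 1.01 with class means in place of medians. The release minus scaffold difference was 0.24 with the M4 tables, 0.42 with class means and 0.28 with the length of the longest coding transcript. The vesicle minus release difference, whose spread between libraries was the smallest, was 0.67 with a pseudocount of 1 TPM, 0.93 with the M4 tables, 0.74 with detected members only, 0.59 with class means and 1.11 with the longest coding transcript. The endocytosis minus scaffold difference was 0.75 with the longest coding transcript. The median log2 ratio of the members reversed to -0.13 with spike-in scaling. The count of genes 2-fold different went from 841 to 208 with at least 50 counts and to 1429 at a 1.5-fold limit, and the count of members stayed at 0 under each alternative. Leaving out a library gave 41 to 42 detected members and vesicle minus scaffold differences of 1.20 to 1.38, release minus scaffold of 0.49 to 0.68, vesicle minus release of 0.69 to 0.71 and endocytosis minus scaffold of 0.92 to 1.42. Except for the shorter gene lists left by stricter limits, the cause of these moves was not tested. Depth limited Sv2c, Cadps2 and Sv2b most, with 107, 144 and 158 counts in replicate 1. No paired analysis was possible because there was only 1 group.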
